A study of Mus musculus with 18 samples.

Results

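Extensor digitorum longus (EDL) is a fast muscle of the lower leg that lifts the toes and foot. The comparison described here is the EDL of mice flown in orbit (BF) against the EDL of mice kept in a standard animal facility (FC), with 3 arrays in each group. These are 6 of the 18 arrays of the series and were chosen by their titles, BF EDL and FC EDL. The arrays carried 12393 genes named by a probe set of their own, and all of them were described, with no selection on the readout.

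All mice were male C57/BL6 and 19 to 20 weeks old. BF mice flew for 30 days aboard the Bion M1 satellite in its habitat and ate a paste food. FC mice spent the same time in the animal facility on standard chow. The EDL of a further group, BG, came from mice housed on the ground in a copy of the flight habitat with the paste food, and its 3 arrays are given beside the others. BF mice were also transported after landing before the muscles were taken. Flight, habitat, food, landing and transport differ together between BF and FC and cannot be told apart by this comparison, while BG shares the habitat and food of BF. Values are RMA signals in log2 units, so that a difference of 1 is a 2-fold change.

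Skeletal muscle adjusts its gene expression to load, feeding, hormones and time of day. Glucocorticoids, the adrenal hormones of stress and fasting, act on muscle by binding a receptor that switches on genes of protein breakdown and fuel choice. The circadian clock is a feedback loop in which the activators Arntl and Clock switch on Per, Cry and D-box factor genes such as Dbp, whose products act on the loop or on its outputs. Sestrins and the cyclin-dependent kinase inhibitor p21, encoded by Cdkn1a, restrain growth signalling and cell division under stress.

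The EDL label was checked against fibre type markers. Myh4, the myosin heavy chain of the fastest fibres, lay between 14.07 and 14.27 in BF and between 14.11 and 14.32 in FC (log2 signal), and of 17 fast fibre genes none passed limma's test at an adjusted p under 0.05, or at an unadjusted one. Slow fibre genes varied from array to array. Myl2, the slow regulatory light chain, was at 11.49, 11.68 and 11.54 in BF and at 12.09, 11.76 and 8.37 in FC, and the low array was FC 3. Tnni1, slow troponin I, was at 8.56, 8.04 and 6.92 in BF and at 9.44, 9.09 and 5.87 in FC. Myh7, the slow myosin heavy chain, was at 9.53, 8.90 and 5.55 in BF and at 10.57, 10.75 and 6.80 in FC. FC 3 thus stood apart from FC 1 and FC 2, with a mean over the 16 measured slow fibre genes of 7.44 against 9.89 and 9.71, and BF 3 was the lowest of its group at 8.75. The BG arrays spread likewise, with Myl2 at 11.98, 9.62 and 10.89. In whole muscle, fewer fibres or cells of a type and less RNA in each of them cannot be told apart. Values without FC 3 are given where a result rested on that array.

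A gene was called when its adjusted p was under 0.05 at any fold change. By this rule 438 of 12393 genes were called between BF and FC EDL, a background of 3.53%. Of these, 126 were higher in BF (1.02% of all genes) and 312 were lower (2.52%). With the 9 EDL arrays alone in the fit 90 were higher and 190 lower, and when these were also quantile normalized again on their own 108 were higher and 160 lower. The changes were mostly modest: 30 of the higher and 32 of the lower genes passed 2-fold, and the median called difference was 0.71 for the higher and -0.65 for the lower genes, beside -0.0035 over all genes. The threshold that the study set for EDL, over 2-fold with an unadjusted p under 0.05, was met by 91 genes (0.734%), 43 higher (0.347%) and 48 lower (0.387%). All 126 higher genes and 311 of the 312 lower ones had no overlap between the BF and FC arrays, as did 23.9% of all genes, and the exception was En1. The count depended on single arrays, with 137 genes without FC 2, 151 without FC 3, 211 without BF 3 and 261 without BF 1. Arrays of the same group correlated at 0.9864 to 0.9948 and arrays of BF with FC at 0.9833 to 0.99. With 3 arrays a side the smallest exact permutation p is 0.1, so the p values given are those of the fit over all genes.

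**Figure D1:**
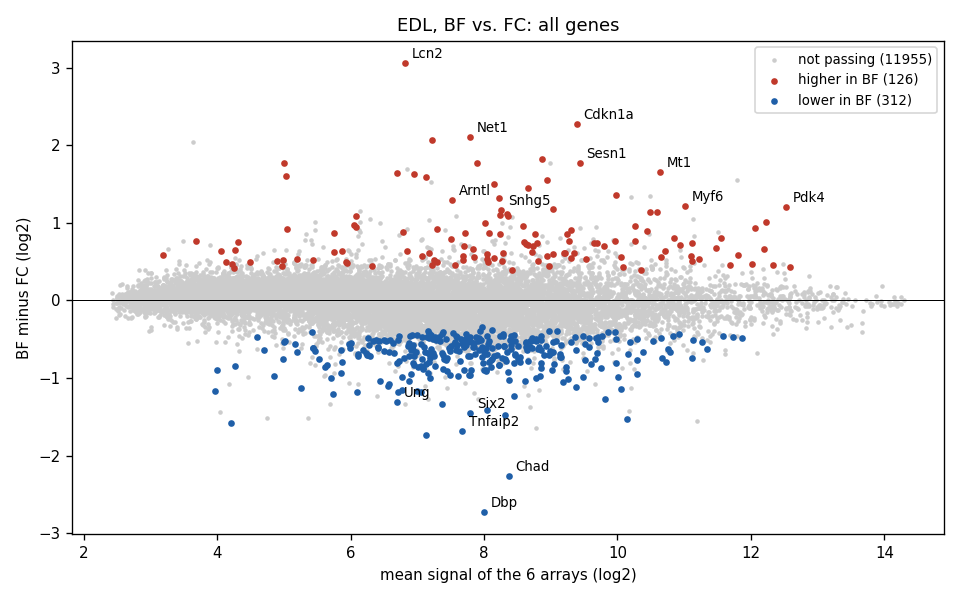
Mean log2 signal of the 6 arrays (x axis) against the log2 difference of the group means, BF minus FC (y axis), with 1 point per gene in EDL. The 126 genes higher in BF and the 312 lower in BF are coloured, Lcn2 stands at the top with 3.06 and Dbp at the bottom with -2.73.

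The largest rise was that of Lcn2, a secreted protein that binds iron-carrying siderophores and is made in inflammation. Its log2 signal was 9.19, 7.37 and 8.49 in BF, 4.49, 5.33 and 6.05 in FC and 5.41, 4.65 and 6.16 in BG. All 3 BF arrays lay above every ground array, and the difference to FC was 3.06 ± 0.46 (SE, n = 3 per group, adjusted p = 0.0018 from limma), a fold of 8.35. Against BG it was 2.94 (adjusted p = 0.0085). Among the other leading genes, Net1, an activator of the small GTPase RhoA, was at 8.90, 9.14 and 8.51 in BF and at 7.05, 6.98 and 6.2 in FC. It rose by 2.11 ± 0.27 (adjusted p = 0.00077) and stood above all BG arrays as well. 6430548M08Rik rose by 1.77 ± 0.19 (adjusted p = 0.00017), from between 6.82 and 7.36 in FC to between 8.41 and 8.96 in BF.

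Further genes with large rises were less steady. Tnfrsf12a, the receptor of the cytokine TWEAK, was at 9.26, 10.75 and 9.31 in BF and at 8.43, 7.86 and 7.57 in FC. It rose by 1.82 ± 0.39 (adjusted p = 0.016), while BG, at 10.40, 8.91 and 9.80, overlapped BF. Myl10, a regulatory myosin light chain, was at 7.14, 8.71 and 8.93 in BF and at 7.10, 7.11 and 4.35 in FC, where FC 3 was again the low array. Its difference of 2.07 (adjusted p = 0.044) was 1.15 without FC 3, and the call was lost (adjusted p = 0.145). Irx5, a homeobox factor, rose by 1.61 (adjusted p = 0.022) and was higher still in BG, at 6.2, 7.07 and 6.14 against 6.39, 4.57 and 6.55 in BF and 4.39, 3.90 and 4.40 in FC. Leaving out BF 1, BF 3, FC 2 or FC 3 ended its call (adjusted p up to 0.1). That of Tnfrsf12a was lost without BF 2, FC 2 or FC 3 (adjusted p up to 0.08), and that of Myl10 also without BF 2 or BF 3. Gbp6, an interferon-induced GTPase, rose by 1.63 (adjusted p = 0.0093; 0.054 without FC 3), and Tmem140 by 1.55 (adjusted p = 0.02), a call that was lost without BF 3 or any FC array (adjusted p up to 0.076).

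Genes of the glucocorticoid response were the group with the most called members in 1 direction. Of 36 measured members 8 rose and none fell, beside 1.02% and 2.52% of all genes, and the median difference of the list was 0.28. Cdkn1a, which encodes p21, was at 10.58, 10.21 and 10.79 in BF, 7.74, 8.32 and 8.69 in FC and 9.0, 8.86 and 9.59 in BG. The BF arrays did not overlap either ground group, and the difference to FC was 2.28 ± 0.34 (SE, n = 3 per group, adjusted p = 0.0018), a fold of 4.86. Pdk4, the kinase that closes the entry of pyruvate into oxidation, was at 13.13, 13.27 and 12.98 in BF and at 11.77, 12.21 and 11.79 in FC. It rose by 1.20 ± 0.18 (adjusted p = 0.0019), and BG, at 12.94, 12.36 and 13.01, overlapped BF. Pik3r1, the regulatory subunit of phosphatidylinositol 3-kinase, was at 8.60, 9.31 and 8.80 in BF, 7.36, 7.33 and 7.52 in FC and 6.96, 7.14 and 7.53 in BG. It rose by 1.5 ± 0.29 against FC (adjusted p = 0.0099) and by 1.69 against BG (adjusted p = 0.022), though only 1 of its 3 probe sets was called and the mean of the 3, 0.91, was not (adjusted p = 0.0981).

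Cebpd, a transcription factor of the acute phase, rose by 1.36 ± 0.27 (adjusted p = 0.012; 0.051 without BF 3). Its BF arrays read 10.48, 10.65 and 10.86 and its FC arrays 8.84, 9.63 and 9.45. Fkbp5, a chaperone of the glucocorticoid receptor, was at 11.26, 11.12 and 11.12 in BF and at 9.66, 10.02 and 10.40 in FC, and rose by 1.14 ± 0.27 (adjusted p = 0.024). Serpina3n, a protease inhibitor, rose by 0.94 ± 0.22 (adjusted p = 0.026). The last 2 calls held without some arrays and not without others, with an adjusted p of up to 0.09 for Fkbp5 without 1 of BF 1, BF 2, BF 3, FC 1 or FC 2 and of up to 0.1 for Serpina3n without 1 of BF 1, BF 3, FC 1 or FC 2.

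Not all of the list passed. Fbxo32, a muscle ubiquitin ligase of atrophy, was at 12.33, 12.70 and 12.70 in BF, 11.16, 11.17 and 10.72 in FC and 11.39, 11.51 and 11.55 in BG. These arrays did not overlap, but the difference of 1.56 ± 0.59, whose SE rests on both muscles, had an adjusted p of 0.16. In the limma fit of the 9 EDL arrays alone Fbxo32 was called (SE 0.151, adjusted p = 0.0019). With the 6 arrays of BF and FC alone it was called too (adjusted p = 0.0044). For other genes both of these fits ended a call, among them Clock, Kcnma1, Bnip3, Hspb1, Gbe1, Snhg8 and Col6a2 (adjusted p from 0.0553 to 0.102). Tsc22d3, Sgk1, Zbtb16, Klf9 and Per1, which respond to the receptor in many tissues, differed by 0.06, 0.19, 0.02, -0.12 and -0.25 and did not pass (adjusted p from 0.75 to 0.97). Bcl6, a repressor, differed by -0.74 (adjusted p = 0.11), Ddit4, an inhibitor of mTOR, by 0.64 (adjusted p = 0.57) and Angptl4, an inhibitor of lipoprotein lipase, by 0.85 (adjusted p = 0.35). Lcn2 also belongs to the list, and Lcn2, S100a8 and Serpina3n are markers or products of inflammation as well.

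Metallothioneins, small proteins that bind zinc and copper, are in the same list. Mt1 was at 11.36, 11.29 and 11.73 in BF, 9.20, 9.93 and 10.27 in FC and 11.58, 10.06 and 11.16 in BG, so that BF cleared FC but not BG. It rose by 1.66 ± 0.37 (SE, n = 3 per group, adjusted p = 0.019), and leaving out BF 3, FC 1 or FC 2 ended the call (adjusted p up to 0.076). A further probe set of Mt1 gave 0.09. Mt2 was at 10.96, 10.33 and 11.29 in BF and at 8.93, 10.01 and 9.66 in FC, a difference of 1.33 ± 0.37 that missed the threshold (adjusted p = 0.055), with an adjusted p between 0.043 and 0.19 when 1 array was left out. Both genes lie side by side on chromosome 8. Their promoters are shown because metallothionein genes are known for metal response elements, whose core is TGCACNC or TGCGCNC. The stretches run from 250 bases before to 30 after the annotated start (RefSeq, GRCm38.p6, plus strand), Mt1 at chr8:94178839-94179118 and Mt2 at chr8:94172368-94172647, with core matches on either strand in capitals.
Mt1: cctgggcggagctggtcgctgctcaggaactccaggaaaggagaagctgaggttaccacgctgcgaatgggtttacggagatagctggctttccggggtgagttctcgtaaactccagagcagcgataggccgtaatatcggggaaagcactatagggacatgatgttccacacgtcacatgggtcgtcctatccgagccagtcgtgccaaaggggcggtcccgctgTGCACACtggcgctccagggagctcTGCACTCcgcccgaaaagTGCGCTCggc
Mt2: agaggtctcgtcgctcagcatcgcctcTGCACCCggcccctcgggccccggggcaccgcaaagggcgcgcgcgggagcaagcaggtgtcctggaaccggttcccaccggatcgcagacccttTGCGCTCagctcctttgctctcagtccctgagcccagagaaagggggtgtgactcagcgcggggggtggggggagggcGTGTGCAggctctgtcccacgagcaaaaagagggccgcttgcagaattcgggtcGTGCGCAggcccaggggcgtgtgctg
In Mt1 the cores begin at bases -23, 3 and 21 from the start, all on the plus strand. In Mt2 they begin at -223 and -128 on the plus strand and at -50 and 5 on the minus strand, where the printed letters are the reverse complement. TGCACNC was found in 12.6% and TGCGCNC in 15.4% of all 32851 promoter windows, each 300 bases long, so a match alone is a description and not a site.

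**Figure D2:**
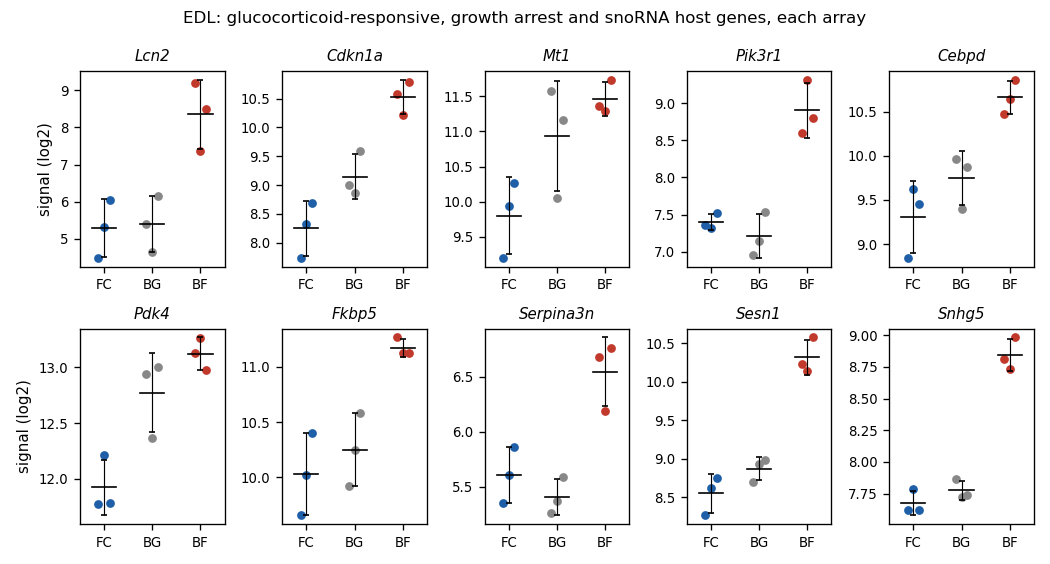
Log2 signal of each EDL array (y axis) in FC, BG and BF (x axis) for 10 genes, with points for arrays, long lines for means and bars for the SD of 3 arrays. In every panel the 3 BF arrays lie above the 3 FC arrays, and in Mt1 and Pdk4 the BG arrays reach up to BF.

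Growth arrest genes moved in both directions. Of 27 members 2 rose and 2 fell (median 0.09). Sesn1, sestrin 1, an inhibitor of the growth kinase mTORC1, had the lowest p of all genes. It was at 10.24, 10.13 and 10.57 in BF, 8.26, 8.62 and 8.75 in FC and 8.70, 8.93 and 8.98 in BG, with no overlap between BF and the ground arrays. The difference to FC was 1.77 ± 0.14 (SE, n = 3 per group, adjusted p = 1.3e-05), a fold of 3.40, all 3 of its probe sets were called, and it was 1.45 against BG (adjusted p = 0.00014). Cdkn1a is described above. Sesn2 and Sesn3 differed by 0.11 and 0.10 (adjusted p = 0.8 and 0.77). Mdm2 and Phlda3, targets of p53 that rise with DNA damage, differed by 0.08 and 0.05 (adjusted p = 0.77 and 0.88), and Ccng1, another target, by -0.43 (adjusted p = 0.18). The members that fell were Cdkn2c, the kinase inhibitor p18, by 0.60 (adjusted p = 0.046), and Ei24, an autophagy factor, by 0.40 (adjusted p = 0.049), and each lost its call without any FC array, among others (adjusted p up to 0.15 and 0.17).

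The cell cycle list had 4 of 37 members lower and none higher, beside 2.52% and 1.02% of all genes, with a median of 0.0006. Ung, the uracil-DNA glycosylase of base excision repair, was at 5.95, 6.02 and 6.17 in BF, 7.57, 7.60 and 6.90 in FC and 7.15, 7.10 and 7.07 in BG. BF lay below both ground groups, and Ung fell by 1.31 ± 0.20 (adjusted p = 0.0019). Aurka, a mitotic kinase, was at 5.15, 4.95 and 5.29 in BF, 6.22, 6.08 and 6.70 in FC and 6.80, 6.21 and 6.0 in BG, and fell by 1.20 ± 0.23 (adjusted p = 0.0084; 0.053 without FC 3). Ccnd1, cyclin D1, fell by 0.81 (adjusted p = 0.019; up to 0.084 without BF 2, BF 3, FC 2 or FC 3). Rrm1, a subunit of ribonucleotide reductase, fell by 0.47 (adjusted p = 0.037), but another of its probe sets gave 0.08 and 5 of the 6 arrays, all but BF 3, were needed for the call.

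Host genes of small nucleolar RNAs, whose spliced transcripts carry guide RNAs for ribosomal RNA modification in their introns, rose where any changed. Of 8 measured members 4 rose and none fell, with a list median of 0.54. Snhg5 was at 8.81, 8.73 and 8.98 in BF, 7.62, 7.79 and 7.62 in FC and 7.86, 7.72 and 7.74 in BG, and rose by 1.17 ± 0.14 (SE, n = 3 per group, adjusted p = 0.00043). Snhg1 was at 8.65, 8.83 and 8.88 in BF and at 7.44, 7.90 and 7.74 in FC, and rose by 1.10 ± 0.21 (adjusted p = 0.0082). Gas5 was at 10.71, 10.87 and 11.10 in BF, 10.07, 10.03 and 9.89 in FC and 10.21, 10.23 and 10.29 in BG, and rose by 0.90 ± 0.13 (adjusted p = 0.0017), with 3 of 4 probe sets called. Snhg8 rose by 0.74 ± 0.17 (adjusted p = 0.023; up to 0.097 without BF 2, BF 3, FC 2 or FC 3). In all 4 the BF arrays lay above every FC and BG array. Snhg6 differed by 0.34 (adjusted p = 0.12), and the protein-coding hosts Rpl13a and Eef1a1 by 0.12 and 0.20 (adjusted p = 0.61 and 0.55).

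Genes of this kind are known for starts in a run of pyrimidines, the terminal oligopyrimidine tract, whose core is C followed by pyrimidines at the first base. The bases around their annotated starts are therefore shown, 30 before and 30 after (RefSeq, GRCm38.p6, written along the gene), with the unbroken pyrimidine run at or just before the start in capitals. Gas5 has 2 annotated starts and is on the plus strand, as is Snhg1, and Snhg5 and Snhg8 are on the minus strand. The positions are chr1:161034571-161034630 and chr1:161035136-161035195 for Gas5, chr19:8723457-8723516 for Snhg1, chr9:88522868-88522927 for Snhg5 and chr3:123508307-123508366 for Snhg8.
Gas5, start 1: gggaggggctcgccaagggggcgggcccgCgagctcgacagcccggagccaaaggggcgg
Gas5, start 2: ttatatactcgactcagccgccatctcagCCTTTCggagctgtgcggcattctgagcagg
Snhg1: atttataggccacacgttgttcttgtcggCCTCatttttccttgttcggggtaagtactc
Snhg5: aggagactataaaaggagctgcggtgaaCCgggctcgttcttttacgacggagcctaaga
Snhg8: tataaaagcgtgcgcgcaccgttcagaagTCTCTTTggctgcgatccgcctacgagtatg
The capitals count 6 bases at the second start of Gas5 and 7 at Snhg8, and 1, 4 and 2 at the first start of Gas5, at Snhg1 and at Snhg5. The first base itself is a C at the second start of Gas5, at Snhg1 and at Snhg8. It is a G at the first start of Gas5 and at Snhg5, where the capitals end before the start and no run holds the first base. A C followed by 4 pyrimidines at the annotated first base was found in 2.51% of all 32851 windows. Of 43 cytosolic ribosomal protein genes, the classic class with such starts, none was called by limma (2 were higher and 1 lower at an unadjusted p under 0.05) and the median was 0.11. Among 33 genes of ribosome biogenesis and translation 1 rose, Eif4a2, a subunit of the cap-binding helicase complex, by 0.43 (adjusted p = 0.048), and leaving out any 1 of the 6 arrays ended the call.

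The circadian clock list had 2 members higher and 3 lower of 21 measured, with a median of -0.25. Dbp, a D-box transcription factor and a direct output of the clock, had the largest fall of all genes. It was at 6.87, 6.76 and 6.29 in BF, 9.39, 9.54 and 9.16 in FC and 7.08, 9.21 and 8.13 in BG. The difference to FC was -2.73 ± 0.51 (SE, n = 3 per group, adjusted p = 0.0077), a 6.62-fold higher signal in FC, and both of its probe sets were called. BF lay below all BG arrays too, though BG 1 was close. Per2, a repressor of the loop, was at 6.64, 6.48 and 6.24 in BF and at 7.39, 8.02 and 7.52 in FC, and fell by 1.19 ± 0.23 (adjusted p = 0.0098; 0.059 without FC 2). Hlf, a D-box factor like Dbp, was at 7.08, 7.12 and 6.78 in BF and at 7.89, 7.83 and 7.99 in FC, and fell by 0.91 ± 0.19 (adjusted p = 0.015; up to 0.069 without BF 3 or FC 3).

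The activators went the other way. Arntl, which encodes BMAL1, was at 7.81, 8.36 and 8.32 in BF and at 7.02, 6.74 and 6.86 in FC, and rose by 1.29 ± 0.33 (adjusted p = 0.039). Clock, its partner, was at 8.22, 8.69 and 8.13 in BF and at 7.69, 7.72 and 7.83 in FC, and rose by 0.60 ± 0.15 (adjusted p = 0.038). Without 1 array the adjusted p reached 0.14 for Arntl and 0.13 for Clock, and each call was lost in 5 of 6 such fits. Arntl kept it without BF 1 and Clock without BF 3. In the limma fit of the 9 EDL arrays alone Arntl was called (adjusted p = 0.0201) and Clock was not (adjusted p = 0.0773). Clock was also not called with the mean of its probe sets. In BG, Arntl was at 8.31, 7.43 and 7.42 and Clock at 8.20, 8.08 and 7.77, which for both genes overlapped BF. BG 1 was the BG array with the highest Arntl and the lowest Dbp.

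The other clock genes did not pass. Per3 differed by -0.93 (adjusted p = 0.11), Tef, the third D-box activator, by -0.48 (adjusted p = 0.2), and Nfil3, the repressor at D-boxes, by 0.79 (adjusted p = 0.32), each with BF and FC arrays that did not overlap. Bhlhe40, a repressor of the loop, differed by -0.67 (adjusted p = 0.35), with all BF arrays below FC. Nr1d1 and Cry1 differed by -0.43 and -0.24 (adjusted p = 0.64 and 0.6). The time of day at which the muscles were taken is not given in the sources used here, and its part in these values was not tested. The 250 bases before the annotated start of Per3 are shown because they hold the D-box TTATGTAA at 2 places, in capitals (RefSeq, GRCm38.p6, chr4:151044666-151044915, minus strand, written along the gene).
Per3: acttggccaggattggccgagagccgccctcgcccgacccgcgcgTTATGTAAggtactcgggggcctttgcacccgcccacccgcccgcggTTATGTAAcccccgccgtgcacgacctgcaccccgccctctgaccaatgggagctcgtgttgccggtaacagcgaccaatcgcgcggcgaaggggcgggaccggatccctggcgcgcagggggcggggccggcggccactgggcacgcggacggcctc
The matches begin at bases -205 and -158. TTATGTAA, searched on both strands, was found in 0.938% of all windows and in 2 of the 18 clock list members with a window. The E-box CACGTG was found in 4 of these 18 and in 7.15% of all windows, and AGGTCA, the core that Nr1d1 and Rora bind, in 5 of 18 and in 16.3% of all windows. Members were counted by gene, with a match in any of their windows, whereas the shares are per window and so not directly comparable.

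**Figure D3:**
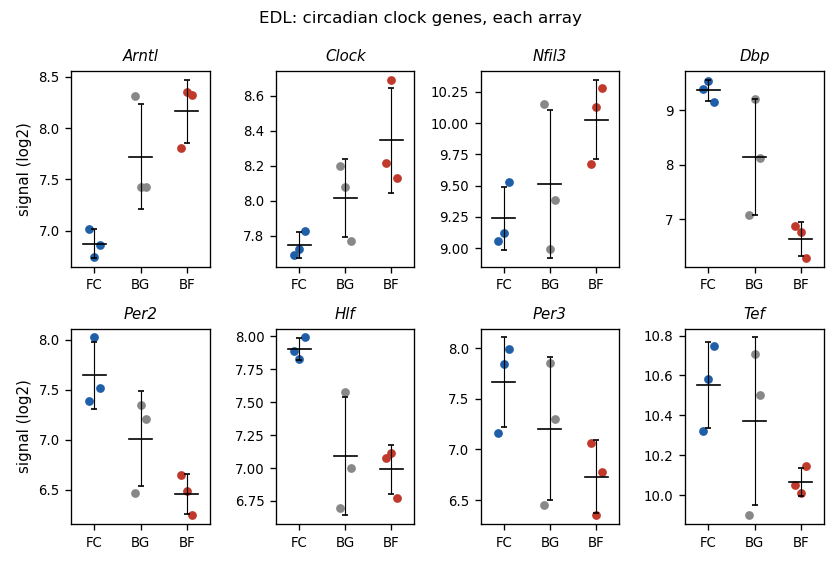
Log2 signal of each EDL array (y axis) in FC, BG and BF (x axis) for 8 clock genes, with points for arrays, long lines for means and bars for the SD of 3 arrays. Arntl, Clock and Nfil3 have BF above FC and the other 5 genes have BF below FC, with BG spread between or across them; Nfil3, Per3 and Tef did not pass the test.

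Genes of fat use that were called were higher in BF. Of 42 genes of fatty acid uptake and oxidation 4 rose and none fell, beside 1.02% and 2.52% of all genes (median 0.12). At an unadjusted p under 0.05 there were 7 higher and 4 lower, and 15 members lay below 0. Acot2, a mitochondrial thioesterase that frees fatty acids from coenzyme A, was at 7.27, 7.53 and 7.75 in BF and at 6.26, 5.76 and 5.60 in FC, and rose by 1.64 ± 0.30 (SE, n = 3 per group, adjusted p = 0.0064). BG, at 6.93, 7.62 and 6.72, overlapped BF. Plin5, a coat protein of lipid droplets, rose by 1.32 ± 0.27 (adjusted p = 0.014; up to 0.068 without BF 3, FC 2 or FC 3), and its BF arrays at 8.79, 8.51 and 9.37 overlapped BG at 8.13, 8.74 and 8.82 but not FC at 7.71, 7.50 and 7.52. Echs1, the enoyl hydratase of beta-oxidation, rose by 0.96 ± 0.18 (adjusted p = 0.0082). Cd36, the fatty acid transporter, was at 11.48, 11.51 and 11.45 in BF, 10.93, 10.71 and 10.60 in FC and between 10.98 and 11.40 in BG, and rose by 0.74 ± 0.16 (adjusted p = 0.015; up to 0.076 without FC 2 or FC 3). Acot1, the cytosolic relative of Acot2, differed by 1.01 (adjusted p = 0.12), and Ucp3, an uncoupling protein, by 0.46 (adjusted p = 0.52). Acot1 was called in the limma fits of the 9 EDL arrays alone and of the 6 arrays of BF and FC (adjusted p = 0.023 and 0.0069). Pank1, the first enzyme of coenzyme A synthesis, rose by 1.09 (adjusted p = 0.018; up to 0.097 without BF 1, BF 3 or FC 3).

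In lipid synthesis the called genes were lower, 2 of 24 members with none higher, beside 2.52% and 1.02% of all genes (median -0.28). At an unadjusted p under 0.05 there were 1 higher and 5 lower, and 6 members lay above 0. Mid1ip1, an activator of acetyl-CoA carboxylase, was at 9.59, 9.39 and 9.48 in BF and at 10.78, 10.75 and 10.34 in FC, and fell by 1.14 ± 0.24 (adjusted p = 0.015; 0.065 without FC 2). BG was at 8.46, 9.35 and 9.40, and FC vs. BG was called as well (1.55, adjusted p = 0.039). Srebf1, the transcription factor of lipid synthesis, fell by 0.86 (adjusted p = 0.025; up to 0.12 without BF 1, BF 2, BF 3, FC 2 or FC 3). In cholesterol synthesis 1 of 20 members fell, beside 2.52% of all genes. It was Dhcr7, the last reductase of the pathway, which went from 5.90, 6.26 and 6.0 in FC to 5.29, 5.19 and 5.10 in BF, by 0.86 ± 0.12 (adjusted p = 0.0014). Among 25 regulators of oxidative metabolism 3 fell and none rose, beside 2.52% and 1.02% of all genes (median -0.21). Nr4a1, a nuclear receptor induced by activity, fell by 0.94 (adjusted p = 0.027), Nrip1, a corepressor, by 0.87 (adjusted p = 0.012) and Esrra, the estrogen-related receptor, by 0.51 (adjusted p = 0.021), and each lost its call without FC 2 or FC 3, among others (adjusted p up to 0.12, 0.064 and 0.1). The respiratory chain and ATP synthase, with 68 measured genes, had no call by limma at an adjusted p under 0.05, and 3 were lower at an unadjusted one (median -0.0096, range -0.28 to 0.38).

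Among 43 genes of glycolysis and glycogen 2 rose and none fell, while the list median was -0.17, 29 members lay below 0, and at an unadjusted p under 0.05 there were 3 higher and 8 lower. With array quality weights 3 were called higher and 8 lower. The called genes were Pdk4 and Gbe1, the glycogen branching enzyme. Gbe1 was at 9.40, 10.20 and 9.45 in BF, 8.95, 8.88 and 8.62 in FC and 8.84, 8.50 and 8.26 in BG, and rose by 0.86 ± 0.20 against FC (adjusted p = 0.025; up to 0.12 without BF 2, FC 2 or FC 3) and by 1.15 against BG (adjusted p = 0.022). In the tricarboxylic acid cycle list Got1, a transaminase, rose by 0.59 and Pcx, pyruvate carboxylase, fell by 0.70 (adjusted p = 0.016 and 0.023). Of 28 genes of amino acid catabolism Mccc2 of leucine breakdown rose by 0.92 and Pcca of propionate use fell by 0.64 (adjusted p = 0.045 and 0.042), Got1 being the other riser. Leaving out 1 array could end each of these 4 calls, FC 3 in all 4.

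Insulin and mTOR signalling had 2 of 30 members higher, Pik3r1 and Eif4ebp1, the translation repressor 4E-BP1, and none lower. The median was nevertheless -0.16, with 17 members below 0, and at an unadjusted p under 0.05 there were 2 higher and 7 lower. With array quality weights 2 were called higher and 7 lower. Eif4ebp1 was at 10.31, 10.99 and 10.63 in BF, 9.85, 9.90 and 9.88 in FC and 9.71, 9.53 and 9.10 in BG. It rose by 0.77 ± 0.17 against FC (adjusted p = 0.022), with all 3 probe sets called, and by 1.20 against BG (adjusted p = 0.005), although leaving out any array but BF 1 ended the first call (adjusted p up to 0.082). Igf1, the insulin-like growth factor, was at 8.02, 8.93 and 7.20 in BF and at 8.94, 9.17 and 9.36 in FC, a difference of -1.11 (adjusted p = 0.059). Of 30 genes of atrophy and autophagy, Ctsl, a lysosomal protease, rose by 0.53 (adjusted p = 0.026) and Bnip3, a mitophagy receptor, by 0.46 (adjusted p = 0.012). Bnip3 was at 12.46, 12.59 and 12.65 in BF, 12.19, 12.16 and 11.97 in FC and 12.29, 12.21 and 12.14 in BG, so BF lay above both. Among 41 proteasome subunits Psmd12 rose by 0.51 and Psme1 fell by 0.59 (adjusted p = 0.022 and 0.03). These were 4.88% of that list, beside 3.53% of all genes called. The calls of Ctsl, Psmd12 and Psme1 were lost without FC 2, among others, and that of Bnip3 without BF 3 or FC 3 (adjusted p up to 0.071).

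Myf6, the myogenic factor of mature fibres, was at 11.38, 11.70 and 11.82 in BF, 10.53, 10.52 and 10.17 in FC and 11.06, 10.40 and 10.37 in BG. It rose by 1.22 ± 0.20 against FC (adjusted p = 0.0033) and by 1.02 against BG (adjusted p = 0.034), and was the called member of 21 myogenic regulators. Sln, sarcolipin, an inhibitor of the calcium pump and the called member of the slow fibre list, was at 8.51, 7.31 and 7.97 in BF, 6.67, 6.14 and 6.2 in FC and 7.92, 9.17 and 7.22 in BG. It rose by 1.59 ± 0.41 (adjusted p = 0.04), was called without BF 2 and lost without any other array (adjusted p up to 0.15), and its second probe set gave 0.14. In the list of neuromuscular junction and denervation genes 1 of 27 members rose and 1 fell, beside 1.02% and 2.52% of all genes (median 0.05). The rise was that of Mt1, the metallothionein described above. The fall was that of Lrp4, the agrin receptor, by 0.62 (adjusted p = 0.045). In the calcium and excitability lists Kcnma1, the large-conductance potassium channel, fell by 0.80 (adjusted p = 0.019). Hspb1, a small heat shock protein, rose by 0.93 ± 0.21 (adjusted p = 0.021; up to 0.11 without BF 2, FC 2 or FC 3), 1 of 30 chaperones. Lrp4 lost its call without BF 1, BF 3 or any FC array (adjusted p up to 0.17) and Kcnma1 without BF 3, FC 1 or FC 2 (adjusted p up to 0.094). In the limma fit of the 9 EDL arrays alone Sln, Lrp4, Kcnma1 and Hspb1 were not called (adjusted p from 0.0564 to 0.0818). Myf6 was called in it. Kcnma1 was also not called with the mean of its probe sets. Ankrd1, a stretch-responsive titin partner, read 10.89, 10.90 and 7.83 in BF against 8.59, 7.88 and 7.85 in FC, a difference of 1.77 (adjusted p = 0.13), which was 2.79 without BF 3 (adjusted p = 0.0071).

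Several homeobox genes of the Hoxd cluster on chromosome 2, which lay out the limb, were lower in BF. Of 34 positional factors 4 fell and 1 rose, Irx5. Without the soleus arrays fewer were called, 3 lower with the 9 EDL arrays and 1 lower with the 6 arrays of BF and FC. In the latter fit the adjusted p was 0.0682 for Hoxd8, 0.0515 for Hoxd9 and 0.0942 for Hoxd10, so that their calls were lost, and 0.0129 for Six2. Hoxd8 was at 7.87, 7.42 and 7.42 in BF, 9.45, 9.62 and 8.07 in FC and 7.71, 7.64 and 7.90 in BG, and fell by 1.48 ± 0.29 (SE, n = 3 per group, adjusted p = 0.0093; 0.056 without FC 2). Hoxd9 was at 6.91, 6.55 and 6.67 in BF, 8.34, 8.53 and 7.25 in FC and 6.67, 6.87 and 7.07 in BG, and fell by 1.33 ± 0.24 (adjusted p = 0.0068). Hoxd10 fell by 1.17 ± 0.26 (adjusted p = 0.02; up to 0.097 without BF 2, BF 3, FC 1 or FC 2), between 3.12 and 3.58 in BF and at 4.77, 5.18 and 3.72 in FC. In all 3 the FC arrays stood above BF and FC 3 was the lowest of FC, close to BG. Without FC 3 the differences were -1.97, -1.73 and -1.59 (adjusted p = 0.00015, 0.00015 and 0.00077).

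Six2, a homeobox factor of connective tissue, was at 7.34, 6.88 and 6.98 in BF, 8.74, 8.78 and 8.05 in FC and 7.07, 7.29 and 7.20 in BG. It fell by 1.45 ± 0.21 (adjusted p = 0.0017) and was also called between FC and BG (1.33, adjusted p = 0.043). En1, engrailed 1, was at 2.95, 4.14 and 3.14 in BF, 5.73, 5.55 and 3.70 in FC and 3.00, 3.55 and 3.10 in BG, where BF 2 overlapped FC 3. It fell by 1.59 ± 0.39 (adjusted p = 0.032), a call that was lost without BF 1, BF 3, FC 1 or FC 2 (adjusted p up to 0.15), and without FC 3 it was -2.23 (adjusted p = 0.000781). FC 3 is also the array with the lowest Myl2 and Tnni1, and the part of fibre or tissue make-up in these values was not tested.

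A few connective tissue genes fell, most of them in calls that rested on single arrays. Of 25 tendon and cartilage genes 2 fell and none rose (median -0.33), and of 49 collagens and matrix genes 3 fell and none rose (median -0.26). Over all genes 2.52% fell and 1.02% rose. With array quality weights 2 of the 49 were higher and 3 lower. The mean over the collagens and matrix genes was 8.34, 7.86 and 7.51 in BF and 7.98, 8.15 and 8.33 in FC, so BF 1 was above every FC array. Chad, chondroadherin of cartilage and tendon, was at 8.24, 6.88 and 6.61 in BF, 9.19, 10.72 and 8.62 in FC and 7.65, 8.71 and 7.88 in BG. It fell by 2.27 ± 0.55 (SE, n = 3 per group, adjusted p = 0.029), with a spread of several fold inside each group, and the call was lost without BF 2, BF 3 or FC 2 (adjusted p up to 0.15). Col6a1 and Col6a2, chains of the collagen that surrounds each fibre, fell by 1.12 and 1.05 (adjusted p = 0.024 and 0.013). Col6a1 was at 9.60, 8.44 and 8.40 in BF and at 9.63, 9.79 and 10.39 in FC, so BF 1 nearly met FC, and without FC 3 the difference was -0.90 (adjusted p = 0.13). BF 2, BF 3 and FC 2 also decided its call, and BF 3 and FC 3 that of Col6a2 (adjusted p up to 0.071). P4ha1, a collagen prolyl hydroxylase, fell by 0.79 (adjusted p = 0.046; up to 0.15 without any 1 array), and Clec3b, tetranectin, by 0.67 (adjusted p = 0.0088; 0.054 without FC 3).

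Other tendon genes did not pass. In the list 19 of the 25 members lay below 0, and at an unadjusted p under 0.05 there were 5 lower and none higher. Fmod, fibromodulin, was at 11.43, 10.21 and 9.58 in BF and at 11.47, 12.33 and 12.10 in FC (difference -1.56, adjusted p = 0.089), and Comp differed by -1.27 (adjusted p = 0.1). Tnmd, tenomodulin, a defining marker of tendon cells, was at 10.69, 7.66 and 9.66 in BF and at 9.29, 10.16 and 9.66 in FC (adjusted p = 0.84), and Scx, another, differed by -0.35 (adjusted p = 0.46). The mean over the 25 genes was 8.0, 7.30 and 7.25 in BF and 7.79, 8.17 and 7.94 in FC, so BF 1 lay within the FC range. How much tendon each sample held is not known, and its part in the falls of Chad, the collagens and the positional factors was not tested. Thy1, a fibroblast surface protein, fell by 1.16 (adjusted p = 0.029; up to 0.14 without BF 2, FC 2 or FC 3), 1 of 17 fibroblast markers. The mean of these markers was 8.0, 7.31 and 7.65 in BF and 7.69, 7.76 and 8.18 in FC, which overlapped. Tgfb3, a growth factor, fell by 0.80 (adjusted p = 0.026; lost without BF 3 or any FC array).

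Inflammatory genes moved in both directions. Of 40 acute phase and interleukin-6 family genes 3 rose and 2 fell (median 0.02). S100a8, a calcium-binding protein of neutrophils, was at 5.28, 6.81 and 5.57 in BF, 4.29, 4.17 and 3.90 in FC and 4.63, 4.41 and 4.15 in BG, and rose by 1.77 ± 0.33 (SE, n = 3 per group, adjusted p = 0.007). Jak2, the kinase of many cytokine receptors, was at 8.15, 8.57 and 8.13 in BF, 9.25, 9.34 and 9.25 in FC and 8.32, 8.60 and 8.72 in BG, and fell by 1.0 ± 0.14 (adjusted p = 0.0016), while its second probe set gave -0.51. Lifr, the receptor of leukaemia inhibitory factor, fell by 0.80 (adjusted p = 0.045), with another probe set at 0.12 and the call lost without any array but BF 2. Cish, an inhibitor of cytokine signalling, was at 8.37, 8.13 and 7.37 in BF and at 9.97, 9.80 and 9.05 in FC, a difference of -1.64 (adjusted p = 0.08). Iigp1 and Ifi35 of the interferon response fell by 0.98 and 0.47 (adjusted p = 0.045 and 0.026) while Gbp6 rose, and leaving out any FC array ended both falls.

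Of 16 measured neutrophil markers 2 rose, Lcn2 and S100a8 themselves, and the other 14 did not pass. The 16 differences were all above 0, with a median of 0.25. The mean over the list was 5.22, 5.34 and 5.14 in BF and 4.76, 4.60 and 4.73 in FC. S100a9 differed by 0.64 (adjusted p = 0.16) and Mmp9, a gelatinase, by 1.01 (adjusted p = 0.11), both highest in BF 2 at 5.90 and 7.29. The granule genes Elane, Mpo and Ngp, which define these cells, differed by 0.07, 0.11 and 0.28 (adjusted p = 0.86, 0.71 and 0.49). Lcn2, by contrast, was lowest of BF in BF 2. The part of neutrophils in the rise of Lcn2 and S100a8 was not tested. None of 28 genes of the unfolded protein response, 10 of polyamine metabolism or 13 of embryonic and regenerating muscle was called either (3 higher and 2 lower, 1 and 1, and 3 and 0 at an unadjusted p under 0.05). None of 30 macrophage, 20 lymphocyte, 18 adipocyte, 15 Schwann cell or 8 red blood cell markers was called by limma at an adjusted p under 0.05. At an unadjusted p under 0.05, 2 macrophage markers were lower and 1 red blood cell marker was higher. Adipoq, the adipocyte hormone, lay between 7.74 and 9.16 in BF and between 8.26 and 9.83 in FC. Of vessel genes, Cldn5, claudin 5, rose from 6.83, 6.81 and 6.85 in FC to 7.83, 7.54 and 7.89 in BF, by 0.92 ± 0.13 (adjusted p = 0.0016), while Vwf fell by 0.84 (adjusted p = 0.047; up to 0.23 without BF 1, BF 3, FC 2 or FC 3), and Smtn, smoothelin of smooth muscle, fell by 0.97 (adjusted p = 0.0023). Vwf was also not called with the 9 EDL arrays alone or with the mean of its probe sets.

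Antioxidant genes were split, with 3 of 37 higher and 2 lower. Besides Sesn1 and Mt1, Nfe2l2, the transcription factor NRF2, rose by 0.54 (adjusted p = 0.044), and the glutathione transferases Gsta4 and Gstp1 fell by 0.59 and 0.49 (adjusted p = 0.046 and 0.023). Nfe2l2 lost its call without any 1 array (adjusted p up to 0.19), Gsta4 without any but BF 3 and Gstp1 without BF 3 or any FC array. Slc7a11, the cystine transporter, rose by 0.65 (adjusted p = 0.04), and Slc39a14, a zinc and iron importer, was at 8.23, 8.09 and 8.13 in BF, 6.99, 7.58 and 7.28 in FC and 7.11, 7.07 and 7.11 in BG, and rose by 0.86 (adjusted p = 0.017). Slc25a37, the mitochondrial iron importer mitoferrin, fell by 0.74 (adjusted p = 0.038). In the mitochondrial ribosome Mrps2 and Mrps18b of 66 genes fell by 0.56 and 0.48 (adjusted p = 0.022 and 0.017). These were 3.03% of the list, beside 3.53% of all genes called and 2.52% lower. For Mrps2 the mean of its probe sets was not called (adjusted p = 0.336). Tln1, talin of the costamere, fell by 0.83 ± 0.14 (adjusted p = 0.0039), though a further probe set of it gave 0.02 and the mean of both was not called (adjusted p = 0.182). Slc7a11, Slc39a14, Slc25a37 and both ribosomal genes lost their calls without FC 3, among others.

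Other genes with large falls were in none of these groups. Tnfaip2, a gene induced by tumour necrosis factor, was at 6.96, 6.64 and 6.87 in BF, 8.47, 8.59 and 8.48 in FC and 7.71, 8.91 and 7.78 in BG, and fell by 1.69 ± 0.27 against FC (SE, n = 3 per group, adjusted p = 0.0031) and by 1.31 against BG (adjusted p = 0.043). Slc25a30, a mitochondrial carrier, was at 7.04, 7.73 and 7.24 in BF and at 8.75, 9.10 and 8.39 in FC, and fell by 1.41 ± 0.23 (adjusted p = 0.0033). Its BG arrays, at 7.18, 7.33 and 7.76, lay with BF, and only 2 of its 5 probe sets were called. Nkain1, a partner of the sodium pump, fell by 1.23 ± 0.15 (adjusted p = 0.00056), from between 8.86 and 9.21 to between 7.73 and 7.95. Clu, clusterin, an extracellular chaperone, fell by 1.27 ± 0.24 (adjusted p = 0.0075) with all 4 probe sets called. Nrep fell by 1.53 (adjusted p = 0.021; up to 0.075 without BF 2, BF 3, FC 2 or FC 3), and Rasd2, a Ras-like GTPase, differed by -1.73 (adjusted p = 0.015; up to 0.079 without BF 1, BF 3 or FC 3).

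**Figure D4:**
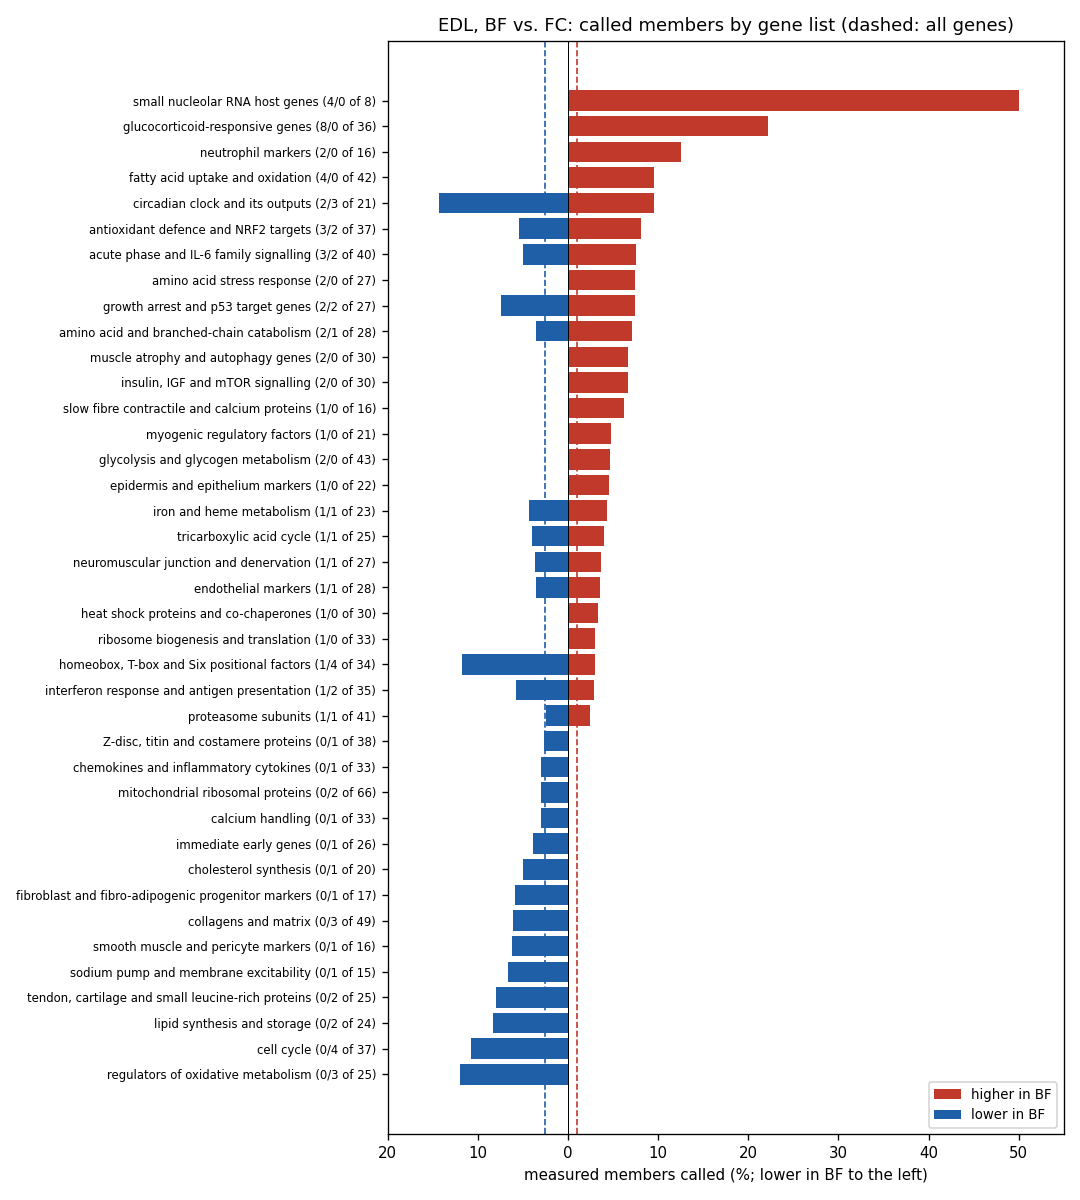
Share of measured members called (x axis, percent) for each gene list with at least 1 call (y axis), with members higher in BF to the right and lower to the left. The dashed lines mark all genes, 1.02% higher and 2.52% lower, and the small nucleolar RNA hosts (4 of 8 higher) and glucocorticoid-responsive genes (8 of 36 higher) reach furthest to the right.

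The ground habitat arrays were set beside BF and FC. BF vs. FC, BF vs. BG and FC vs. BG share arrays, so their values are only set side by side. In EDL 47 genes (0.379%) were called between BF and BG and 4 genes (0.0323%) between FC and BG. Of the 126 genes higher in BF than in FC, the BG mean was nearer to FC for 89 and nearer to BF for 37. Of the 312 lower genes it was nearer to FC for 169 and nearer to BF for 143. Together this was 58.9% of the called genes, beside 50.4% of all genes, and since the called genes were chosen on BF and FC nothing is read from the shares. The BF arrays lay outside both ground groups for 85 of the higher and 167 of the lower genes, beside 8.17% of all genes. Nearly all called genes already had BF outside FC by their choice, so that share is not a matching one. Over all genes 2968 had BF outside FC, and in 1012 of them BF lay outside BG too. Nothing is read from these counts either.

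Of the called genes, 21 higher and 12 lower ones were called against BG in the same direction, among them Lcn2, Net1, Sesn1, 6430548M08Rik, Snhg5, Gas5, Pik3r1, Myf6, Ung, Aurka and Tnfaip2. Myo5a, an organelle motor, was between 6.57 and 6.73 in BF and at 5.42, 5.56 and 5.63 in FC and 5.09, 5.31 and 5.17 in BG, and rose by 1.09 against FC (adjusted p = 0.005) and by 1.44 against BG (adjusted p = 0.0027). Cdkal1, an enzyme that modifies transfer RNA, was at 9.29, 9.16 and 9.68 in BF, 7.87, 7.82 and 8.09 in FC and 7.81, 7.73 and 7.67 in BG, with rises of 1.45 (adjusted p = 0.021) and 1.64 (adjusted p = 0.036). Lrrc58 rose by 1.14 against FC (adjusted p = 0.015; up to 0.063 without BF 2 or FC 2) and by 1.49 against BG (adjusted p = 0.013). Cdkal1 lost its call against FC without BF 3 or any FC array (adjusted p up to 0.088).

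For other genes FC stood apart and BG lay with BF. The 4 called genes whose FC vs. BG difference also passed were Irx5 (FC minus BG -2.24, adjusted p = 0.043), Mid1ip1 (1.55, adjusted p = 0.039), Six2 (1.33, adjusted p = 0.043) and Hivep2, a zinc finger factor (0.66, adjusted p = 0.044). Hivep2 was at 8.53, 8.42 and 8.29 in BF, 8.96, 8.92 and 9.18 in FC and 8.24, 8.42 and 8.42 in BG, and fell by 0.61 against FC (adjusted p = 0.006). Sln, Myl10, Tnfrsf12a and Itgb1, an integrin chain, were higher in BF than FC with differences to BG of -0.17, -0.10, 0.07 and -0.05 (adjusted p from 0.91 to 0.97). Col19a1, a minor collagen, fell by 0.97 against FC (adjusted p = 0.039) and differed by 0.35 from BG (adjusted p = 0.63). The calls of Itgb1 and Col19a1 against FC were lost without any 1 array, and in both another probe set was near 0 (-0.09 and 0.04).

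The same contrast in soleus, the slow postural muscle, was set beside EDL, and the difference between the muscles was tested. The labels do not say whether EDL and soleus arrays came from the same mice. The test took all arrays as independent and used no pairing. In soleus 3105 genes (25.1%) were called between BF and FC, 1118 higher and 1987 lower. Of the EDL genes, 77 of 126 higher and 191 of 312 lower ones were called in the same direction in soleus, and 4 and 11 in the opposite one. The muscles share the error of each probe set in this fit, so calls in EDL and soleus are not independent. The difference between the muscles itself passed for 253 of all genes (2.04%), and for 11 of the 126 higher and 27 of the 312 lower genes. Sln was the widest of these: it rose by 1.59 in EDL and fell by 2.28 in soleus, a difference of 3.88 ± 0.58 (SE, adjusted p = 0.0038). Plin5, Cd36, Pank1 and Bnip3 were higher in BF EDL and at -0.43, -0.38, -0.69 and -0.31 in soleus (adjusted p of the difference 0.026, 0.014, 0.012 and 0.0068). Nr4a1, Slc25a30, Nup210, Tdrp and 1700001O22Rik fell in EDL and rose in soleus by 1.04, 0.75, 1.36, 1.55 and 1.13 (adjusted p of the difference from 0.00024 to 0.0054). The EDL call of 1700001O22Rik was lost without any 1 array (adjusted p up to 0.13), and that of Tdrp without any but BF 2 (up to 0.19). Nup210 lost its EDL call without BF 1, BF 3, FC 2 or FC 3 (adjusted p up to 0.077).

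For Lcn2, Cdkn1a and Sesn1 the soleus values were 2.51, 2.18 and 1.23, and for Dbp and Arntl they were -3.81 and 2.56, all with the sign of EDL. Snhg5 rose by 1.17 in EDL and by 1.98 in soleus, and this difference of -0.82 passed the test (adjusted p = 0.043). Fzd9, a Wnt receptor, was at -0.72 in EDL and -2.77 in soleus (difference 2.05, adjusted p = 8.3e-05), and Kcnma1 at -0.80 and -1.93 (difference 1.13, adjusted p = 0.025). Six2, Rasd2 and Col19a1 fell in EDL and were at 0.56, 0.66 and 0.55 in soleus (adjusted p of the difference 0.0038, 0.022 and 0.033). The values of Jak2, Aurka, Nrip1 and Cdkn2c likewise differed between the muscles, with soleus at -0.05, 0.34, 0.45 and 0.59 against falls in EDL (adjusted p of the difference 0.022, 0.02, 0.012 and 0.012).

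**Figure D5:**
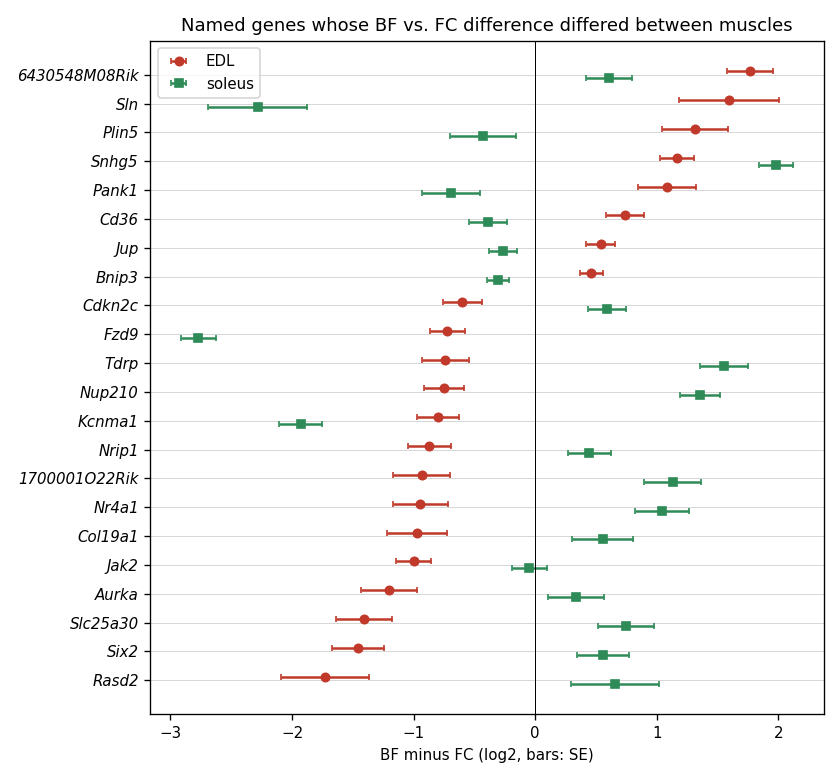
Log2 difference BF minus FC (x axis) in EDL (circles) and soleus (squares) for the 22 named genes (y axis) whose difference between the muscles passed the test, with bars for the SE. Sln shows the widest gap, 1.59 in EDL and -2.28 in soleus, and Snhg5, Fzd9, Kcnma1 and 6430548M08Rik keep the same sign in both.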

How the data were processed

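Total RNA of EDL (extensor digitorum longus) was hybridized to Affymetrix mouse expression arrays, 1 per sample. The authors normalized all 18 arrays of both muscles together by RMA in Partek Genomics Suite 6.6, and the deposited values are log2 signals after background correction, quantile normalization and median polish. They were used as deposited. Groups and sample numbers were read from the titles. For 2 of the BF EDL samples the description gives another Bion number than the source field, and the source field was followed.

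Group means of all 6 groups were estimated together from the 18 arrays by limma 3.58.1 in R 4.3.3, with the variances moderated by empirical Bayes (12 residual degrees of freedom, 5.1 prior), so EDL and soleus share the error of each probe set. P values were adjusted by the method of Benjamini and Hochberg over 22626 probe sets, after 64 control probe sets were left out, with no filter on signal. Of the 22690 probe sets, 20393 name 1 gene, 691 several and 1606 none in the platform annotation, and 20364 were matched to a current gene record by Entrez number. Where a gene had several probe sets, the brightest by mean signal stood for it. On simulated data with 50 changed probe sets of each size, the fit called 25 changes of 1.5-fold and 48 of 2-fold for this comparison. Figures were drawn with matplotlib 3.10.9.

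The members, the 50 gene lists, the rules and the alternatives were chosen with earlier results of these data known. Named genes are the 15 highest and 15 lowest among called genes, up to 5 called members of each list, the clock, glucocorticoid, growth arrest and small nucleolar RNA host lists, genes with the largest tested difference between the muscles, genes with the smallest or largest share of the change in FC vs. BG, genes the study names, and marker genes. The alternatives were other sets of arrays, variance models, normalizations, filters and probe set rules, the replicate number as a block, and leaving out each array. The study's own comparisons, PCR and tissue sections were not used here. The number of arrays limits the precision, and the methods give 3 EDL muscles for each group without saying in words that each came from another animal, so the p values measure the spread between these samples.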

Additional observations from a re-analysis of the deposited data

Results flagged for a closer look

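For 22 of the named genes called in EDL, the BF vs. FC difference was not the same in EDL and soleus by a test of the difference itself in the fit over all arrays (EDL minus soleus, log2, limma, n = 3 per group). Over all genes 253 passed this test (2.04%), and of the genes called in EDL 11 of the 126 higher and 27 of the 312 lower ones. Some named genes were chosen by this same test, so their number is not to be set against that share. The test took EDL and soleus arrays as independent, although the labels do not say whether they share mice. The causes of these differences were not tested.

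Among genes higher in BF EDL, the difference between the muscles was 3.88 for Sln, 1.78 for Pank1, 1.74 for Plin5, 1.16 for 6430548M08Rik, 1.12 for Cd36, 0.80 for Jup (plakoglobin) and 0.77 for Bnip3, with adjusted p from 0.0038 to 0.034. Of these, Sln, Pank1 and Bnip3 were also called lower in soleus and 6430548M08Rik was called higher there. The EDL call of Jup was lost without BF 1, FC 2 or FC 3 (adjusted p up to 0.073). Snhg5 rose in both, with a difference of -0.82, the larger rise being in soleus (adjusted p = 0.043).

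Among genes lower in BF EDL, the difference was -2.39 for Rasd2, -2.29 for Tdrp, -2.15 for Slc25a30, -2.11 for Nup210, -2.07 for 1700001O22Rik, -2.01 for Six2, -1.99 for Nr4a1, -1.54 for Aurka, -1.52 for Col19a1, -1.32 for Nrip1, -1.19 for Cdkn2c and -0.95 for Jak2, with adjusted p from 0.00024 to 0.033. Tdrp, Slc25a30, Nup210, 1700001O22Rik, Nr4a1 and Cdkn2c were called higher in soleus. For Fzd9 and Kcnma1 the fall was larger in soleus, with differences of 2.05 and 1.13 (adjusted p = 8.3e-05 and 0.025). Fzd9 lost its EDL call without FC 2 (adjusted p = 0.061).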

How the results depend on the processing

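The count of 438 genes (126 higher, 312 lower) was 409 with trend and robust moderation, 445 with median centring, 523 for the brighter probe sets and 368 for the mean of probe sets. It was 280 with the 9 EDL arrays alone (190 lower), 263 with the 6 arrays of BF and FC alone (170 lower), 260 without moderation (176 lower), 268 after these 9 arrays alone were also quantile normalized again (108 higher, 160 lower, or 40.3% higher against 28.8%), 689 with any probe set of a gene (292 higher, 397 lower, or 42.4% higher) and 1884 with array quality weights (699 higher, 1185 lower). The called list members numbered 81, and 218 with array weights and 45 without moderation. The genes differing between the muscles numbered 253, and 1311 and 111 under those settings. The called genes whose BG mean lay nearer to FC numbered 258, and 967 and 167 under them and 169 with the 9 EDL arrays. The cause of these moves was not tested. Leaving out 1 array gave 137 to 337 called genes, 48 to 121 higher, 89 to 232 lower, 31 to 67 list members, 127 to 281 genes differing between the muscles and 82 to 199 genes with BG nearer to FC. The lowest count of called genes was that without FC 2.

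Of the 104 named genes that were called, 26 kept the call under every alternative run for them (17, or 16 for Lcn2, S100a8, Dhcr7 and Myo5a, which are not among the brighter probe sets), 78 lost it in at least 1, and none changed sign. FC 2 ended 63 of these calls and FC 3 ended 60. The setting with any probe set of a gene takes its lowest p in the main fit, so it could not end a call. The alternatives were run for 121 of the named genes. Among those of them that were not called, 4 values changed sign: Tnni1 was at 0.17 without BF 3, 0.360 without FC 1 and 0.19 without FC 2, ranging from -1.422 to 0.360 over single omissions, and Myl2 ranged from -0.356 without FC 3 to 1.503 without FC 1. Other uncalled genes given above, such as Tsc22d3, Zbtb16, Mdm2 and Phlda3, were not run. With the replicate number as a block 442 genes were called, 369 of them among the 438. Arrays with the same number deviated together with correlations of -0.133, 0.233 and 0.001, so the numbers were not taken as pairs. Low signals limit Hoxd10 and En1, whose BF values lie near the lowest signals of the arrays.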
